A study of Homo sapiens with 8 samples.

Results

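Iron handling was examined in Hs578T cells through 9 genes, chosen by symbol from the 21077 rows of the expression table: the ferritin chains FTL and FTH1, the ferritin receptor NCOA4, the uptake genes TFRC and SLC11A2, the heme-degrading enzyme HMOX1, the exporter SLC40A1 and the iron sensors IREB2 and ACO1. Each symbol matched a row, and all 9 genes passed the filter on low values, SLC40A1 only through its high-glucose libraries. Hs578T is an established, estrogen receptor-negative breast cancer line of mesenchymal type. Bulk RNA-Seq covered 4 libraries of cells after 48 hours in 25 mM glucose (high glucose, which stands for hyperglycemia) and 4 libraries after 48 hours in 5 mM glucose (low glucose, the control). By the methods of the study, its high-glucose cultures were first conditioned in low glucose and then kept without serum, as were their controls. The labels do not say whether mannitol was added to the low-glucose medium, so effects of glucose and of osmolarity cannot be told apart in these libraries. The study found no differences with or without added mannitol in the phenotypes it examined, proliferation and migration. It gives no such comparison for RNA.

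Cells take up iron mainly bound to transferrin, which the transferrin receptor carries into endosomes, and they store what they do not use inside ferritin, a hollow shell of heavy and light chains. NCOA4 delivers ferritin to lysosomes, where its iron is released, and ferroportin, the product of SLC40A1, is the iron exporter of the cell surface. Balance is set largely after transcription: when iron is scarce, the iron regulatory proteins encoded by ACO1 and IREB2 bind hairpins called iron-responsive elements (IREs), which blocks translation of ferritin messages and stabilizes the message of TFRC. Protein levels and translation were not measured here, so all values below are message levels.

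The IRE is shown because it is the sequence by which the sensors act on messages such as those of ferritin and TFRC. The motif searched was a C, any 5 bases, the loop CAGTGN and 5 bases that pair with those before the loop, G-U pairs included, on the message strand of protein-coding GENCODE transcripts. It was found in 4 of the 9 genes, against 1.53% of 19807 protein-coding genes. The genes were chosen for iron handling and the motif is a known element of such messages, so this difference is no test. The sites follow as DNA letters of the message strand, 5′ to 3′, 30 bases each, with the loop in capitals.
FTL: gtctcttgcttcaaCAGTGTttggacggaa
FTH1: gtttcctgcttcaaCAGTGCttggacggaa
SLC40A1: tccaacttcagctaCAGTGTtagctaagtt
TFRC, match 1: ataattatcggaagCAGTGCcttccataat
TFRC, match 2: cacattatcgggagCAGTGTcttccataat
TFRC, match 3: gtctgtatcggagaCAGTGAtctccatatg
TFRC, match 4: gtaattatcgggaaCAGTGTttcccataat
The sites of both ferritin chains lie in the 5′ UTR, at bases 25 to 54 of the FTL transcript and 31 to 60 of the FTH1 transcript, and differ from each other at 3 of 30 bases. The SLC40A1 site lies in the 5′ UTR at bases 96 to 125. The 4 TFRC sites lie in the 3′ UTR between bases 3287 and 3832 of a transcript of 5012 bases, and TFRC was the only gene searched with 4 or more matches. No match for SLC11A2, HMOX1, NCOA4, IREB2 or ACO1 means only that these letters were not found in their protein-coding transcripts.

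Values are the deposited normalized signal, taken as CPM, and log2 fold changes compare high with low glucose after 1 was added to each value, so that changes of weakly expressed genes come out too small. The glucose levels separated the libraries across the whole table: 72.9% of the 15570 genes tested passed an adjusted p of 0.05 in limma, 35.7% as higher and 37.2% as lower in high glucose, and the groups did not overlap for 66.7%. The estimated depth was 10244900 to 11956677 reads per library. Summed signal was 1017015 to 1036274 in high and 1205567 to 1229021 in low glucose. When libraries were given equal totals, the median of all genes moved to 0.19 on the log2 scale, and the split became 47.1% higher and 27.9% lower. The mesenchymal genes VIM, FN1, SPARC and CDH2 summed to 31982 to 33200 CPM in high and 53702 to 57842 CPM in low glucose, and the hemoglobin gene HBA1 was listed at 0 in all libraries. Of 4 epithelial markers, EPCAM was listed at 0 and CDH1 averaged 0.699 CPM in high and 0.309 CPM in low glucose, but KRT18 averaged 104 CPM in high and 232 CPM in low glucose and KRT8 17.3 CPM in high and 49.5 CPM in low glucose. The hormone receptors ESR1 and PGR together reached at most 0.360 CPM.

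Of the 9 genes, 4 rose (IREB2, SLC40A1, ACO1 and TFRC), 3 fell (FTL, FTH1 and NCOA4) and 2 did not pass (SLC11A2 and HMOX1). SLC40A1 entered the test only through the group where it was high, so its place in these counts is not independent of the filter. The median log2 fold change was 0.11, against 0.00 over all genes. The groups did not overlap for 7 of the 9, against 66.7% of all genes tested (32.2% with high glucose above low glucose and 34.5% below). By direction and by overlap the counts lie near the background, so they are no result about these genes, and the account turns on each gene's own change.

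Both ferritin chains fell in high glucose, and per kilobase of transcript they had the highest levels of the 9 genes. FTL (ENSG00000087086.15, chromosome 19 from 48965309 to 48966879 of GRCh38) encodes the light chain, which helps the iron core to form. It had 4631, 4442, 4252 and 4236 CPM in the high-glucose libraries, against 10035, 10053, 9418 and 9593 CPM in the low-glucose libraries. Every high-glucose library lay below every low-glucose library, and the spread within a group was small beside the gap. The means were 4390.04 ± 186 CPM and 9775 ± 319 CPM (SD, n = 4 each), a ratio of 0.449 and a log2 fold change of -1.16 ± 0.0417 SE (limma adjusted p = 1.67e-12). Of all genes tested, 5.66% had a lower log2 fold change, or 28.5% with quantile normalization. Among all rows of the table, FTL ranked 7 in high glucose and 4 in low glucose by mean signal, which is not corrected for transcript length. In bulk RNA, fewer cells expressing a gene and less RNA per cell cannot be told apart.

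FTH1 (ENSG00000167996.16, chromosome 11 from 61964285 to 61967634) encodes the heavy chain, the ferroxidase that oxidizes iron for storage. Its values were 2399, 2353, 2367 and 2371 CPM in high glucose, against 4432, 4470.02, 4307 and 4309.5 CPM in low glucose. The groups lay far apart again, with a fall less deep than that of FTL. The means were 2372 ± 19.4 CPM and 4379.7 ± 84.0 CPM (SD, n = 4 each), a ratio of 0.542 and a log2 fold change of -0.88 ± 0.0324 SE (limma adjusted p = 1.97e-12). Quantile normalization, which forces the same distribution on each library, kept both falls but reduced them to -0.41 for FTL and -0.42 for FTH1. Ferritin genes have many processed pseudogenes, with which reads can be shared. The 9 pseudogene rows of FTH1 and FTL together held 0.0207% to 0.0390% of the signal of both genes, and the largest, FTLP3 and FTH1P10, averaged 0.657 and 0.327 CPM in high glucose and 1.44 and 0.825 CPM in low glucose. How reads shared with them were counted is not stated. Markers of other cells were low or moved with glucose as well: the macrophage markers PTPRC, CD14 and CD68 summed to 92.9 to 98.2 CPM in high and 180 to 189 CPM in low glucose, nearly all of it CD68, with PTPRC averaging 0.714 CPM in high and 0.0835 CPM in low glucose and CD14 0.951 and 0.51 CPM. The epithelial markers summed to 110 to 128 CPM in high and 274 to 291 CPM in low glucose. The part of these markers, and of the lower mesenchymal sum, in the ferritin change was not tested.

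**Figure D1:**
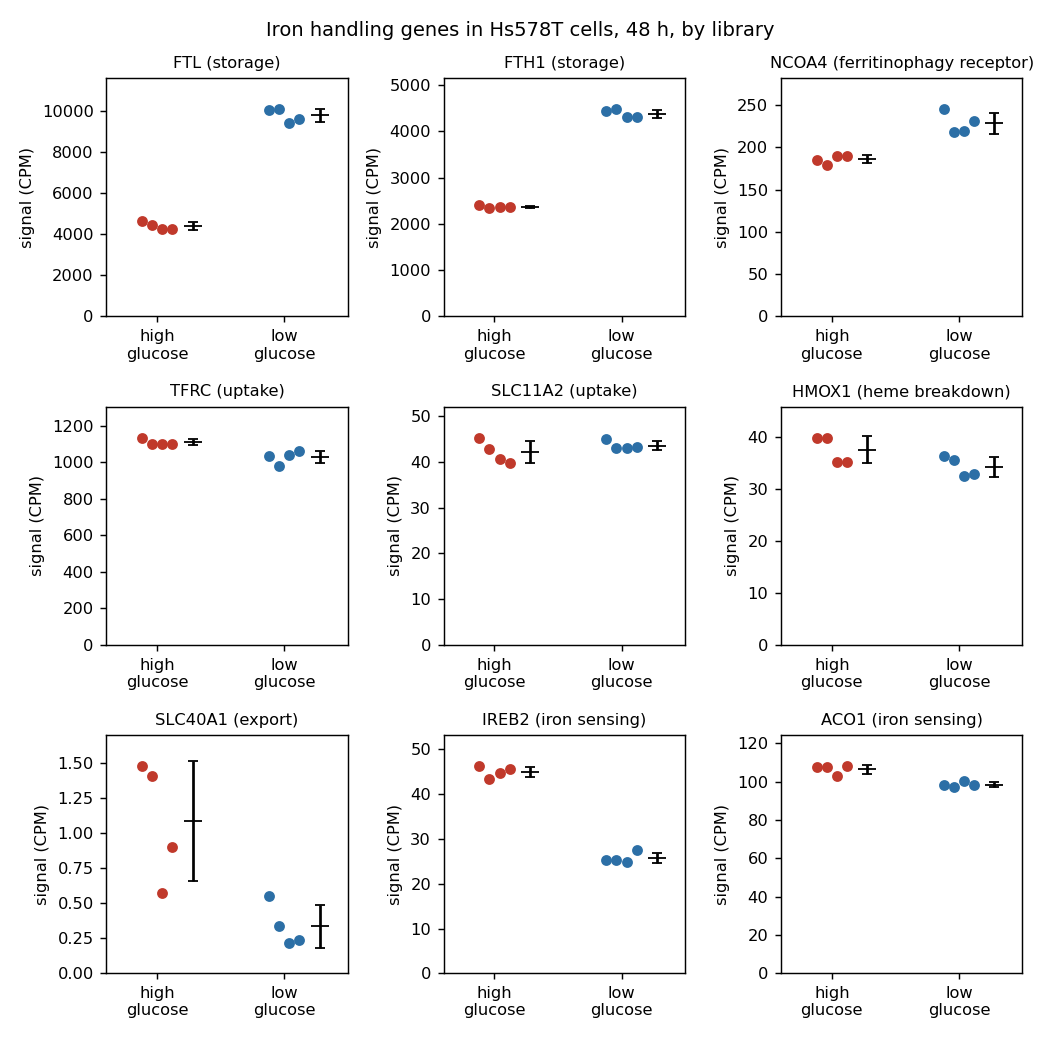
Signal in CPM (y axes, from 0) of the 9 iron handling genes in each of 4 high-glucose (red) and 4 low-glucose (blue) libraries; each point is a library, and black marks give the mean and SD. FTL averaged 4390.04 CPM in high and 9775 CPM in low glucose and IREB2 45.0 and 25.7 CPM, whereas the groups overlapped for SLC11A2 and HMOX1.

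NCOA4 (ENSG00000266412.5, chromosome 10 from 46005088 to 46030623), the receptor that carries ferritin to autophagosomes, was lower as well, but by much less. It had 185, 179, 189.6 and 189 CPM in high glucose, against 245, 219, 219 and 231 CPM in low glucose. The groups did not overlap. The means were 186 ± 4.80 CPM and 228 ± 12.3 CPM (SD, n = 4 each), and the log2 fold change was -0.29 ± 0.0420 SE (limma adjusted p = 1.21e-05). This call rests on the scaling: with equal library totals the log2 fold change was -0.05 (adjusted p = 0.262).

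The uptake genes changed little. TFRC (ENSG00000072274.13, chromosome 3 from 196049284 to 196082090) encodes the transferrin receptor and carries the 4 sites of the 3′ UTR shown above. Its values were 1132, 1101, 1101 and 1100.02 CPM in high glucose, against 1031, 979.9, 1039.9 and 1062 CPM in low glucose. The high-glucose libraries were all above the low-glucose libraries, though only slightly, with a ratio of means of 1.08. The log2 fold change was 0.11 ± 0.0334 SE (limma adjusted p = 0.00843), and it grew to 0.35 with equal totals and 0.49 with quantile normalization. With a variance prior that ignored expression level, TFRC did not pass (adjusted p = 0.0593). SLC11A2 (ENSG00000110911.15, chromosome 12 from 50952263 to 51028886) encodes the divalent metal transporter that moves iron out of endosomes. It had 45.2, 42.9, 40.7 and 39.7 CPM in high glucose, against 45.0, 43.0, 43.0 and 43.3 CPM in low glucose, and the groups overlapped. Its log2 fold change was -0.05 ± 0.0565 SE (limma adjusted p = 0.445), and with equal totals it turned to 0.19 and passed as higher (adjusted p = 0.00555).

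HMOX1 (ENSG00000100292.17, chromosome 22 from 35381096 to 35394207) encodes the inducible heme oxygenase, which frees iron from heme and is a classic target of the oxidative stress factor NRF2 and the heme-sensing repressor BACH1. Its values were 39.9, 39.8, 35.3 and 35.3 CPM in high glucose, against 36.3, 35.6, 32.5 and 32.9 CPM in low glucose. The groups overlapped, since 2 high-glucose libraries lay below the highest low-glucose library. The log2 fold change of 0.13 ± 0.0660 SE did not pass (limma adjusted p = 0.0998). It passed as higher with equal totals (0.36, adjusted p = 1.04e-04), with quantile normalization (0.22, adjusted p = 0.00611) and with median-of-ratios scaling (0.16, adjusted p = 0.0348).

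SLC40A1 (ENSG00000138449.10, chromosome 2 from 189560590 to 189580786), the iron exporter ferroportin, was near the limit of detection. It had 1.47, 1.40, 0.573 and 0.901 CPM in high glucose, against 0.553, 0.337, 0.217 and 0.236 CPM in low glucose. The groups did not overlap, but the lowest high-glucose library and the highest low-glucose library were nearly level. These values stand for an estimated 6 to 17 reads per library in high and 2 to 5 reads in low glucose. Summed over libraries, 47 against 12 estimated reads gave a ratio of 3.24 with a 95% exact interval of 1.69 to 6.71, which covers counting error only. SLC40A1 passed the filter only through its high-glucose libraries, so the filter was not blind to its direction. The log2 fold change was 0.63 ± 0.174 SE (limma adjusted p = 0.00440), and 0.63 without the filter (limma adjusted p = 0.00338). Its size depended on the pseudocount and was 1.43 with 0.1 CPM, 0.19 with 5 CPM and 1.52 with voom weights, with adjusted p values of 0.00130 to 0.0376 over all alternatives that gave a value.

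Among the sensors, IREB2 rose and ACO1 barely moved. IREB2 (ENSG00000136381.13, chromosome 15 from 78437431 to 78501453) encodes IRP2, which is degraded when iron is plentiful. It had 46.2, 43.4, 44.7 and 45.6 CPM in high glucose, against 25.3, 25.3, 24.8 and 27.5 CPM in low glucose. The libraries of each group clustered tightly, with a wide gap between groups. The means were 45.0 ± 1.22 CPM and 25.7 ± 1.19 CPM (SD, n = 4 each), a ratio of 1.75 and a log2 fold change of 0.78 ± 0.0587 SE (limma adjusted p = 7.81e-09). Of all genes tested, 86.5% had a lower log2 fold change. ACO1 (ENSG00000122729.19, chromosome 9 from 32384643 to 32454769) encodes IRP1, which is the cytosolic aconitase while it holds an iron-sulfur cluster. It had 107, 107, 103 and 108 CPM in high glucose, against 98.2, 97.4, 100.1 and 98.1 CPM in low glucose. The groups did not overlap, and the log2 fold change was 0.11 ± 0.0387 SE (limma adjusted p = 0.0167), or 0.35 with equal totals and 0.21 with quantile normalization.

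Per kilobase of transcript, the level of the 9 genes had the same order in both groups. FTL led with 5040.23 CPM per kb in high and 11222 CPM per kb in low glucose, and FTH1 followed with 1972 in high and 3641 in low glucose. TFRC came next (221 CPM per kb in high and 205 in low glucose), then NCOA4 (53.7 in high and 66.0 in low glucose) and HMOX1 (24.2 in high and 22.1 in low glucose). ACO1 (14.3 CPM per kb in high and 13.2 in low glucose), SLC11A2 (10.2 in high and 10.5 in low glucose) and IREB2 (7.11 in high and 4.07 in low glucose) lay close together above SLC40A1 (0.327 in high and 0.101 in low glucose). Each step between neighbours was larger than the spread between libraries. The lengths are those of the canonical GENCODE transcript, and which isoforms the cells express was not measured.

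Measures taken within a library do not depend on a library scale factor, and they separated the groups too. Together, FTL and FTH1 took 0.659% ± 0.0142 of the summed signal in high and 1.16% ± 0.0298 in low glucose (SD, n = 4 each). The ratio of FTL to FTH1 signal was 1.93, 1.89, 1.80 and 1.79 in high glucose, against 2.26, 2.25, 2.19 and 2.23 in low glucose. Light chain message was thus lower relative to heavy chain message in each high-glucose library, by 0.27 on the log2 scale (exact permutation test, 2-sided, p = 0.0286, adjusted over 3 ratios p = 0.0286, n = 4 each). That difference vanished with quantile normalization, which shifts genes by their rank (0.01, exact p = 0.857). The ratio of TFRC to FTH1, uptake against storage, was 0.472, 0.468, 0.465 and 0.464 in high glucose, against 0.233, 0.219, 0.241 and 0.246 in low glucose. It was higher by 0.99 on the log2 scale in high glucose (exact permutation p = 0.0286, adjusted p = 0.0286, n = 4 each). TFRC lay above and FTH1 below all low-glucose libraries in every high-glucose library. The TFRC to FTH1 ratio therefore had to separate the groups, and its p adds nothing to the calls of both genes. The ratio of IREB2 to ACO1 was 0.430, 0.404, 0.433 and 0.422 in high glucose, against 0.258, 0.260, 0.248 and 0.280 in low glucose. The sensors thus differed by 0.69 on the log2 scale (exact permutation p = 0.0286, adjusted p = 0.0286, n = 4 each). The p of 0.0286 is the smallest that 4 against 4 libraries allow.

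**Figure D2:**
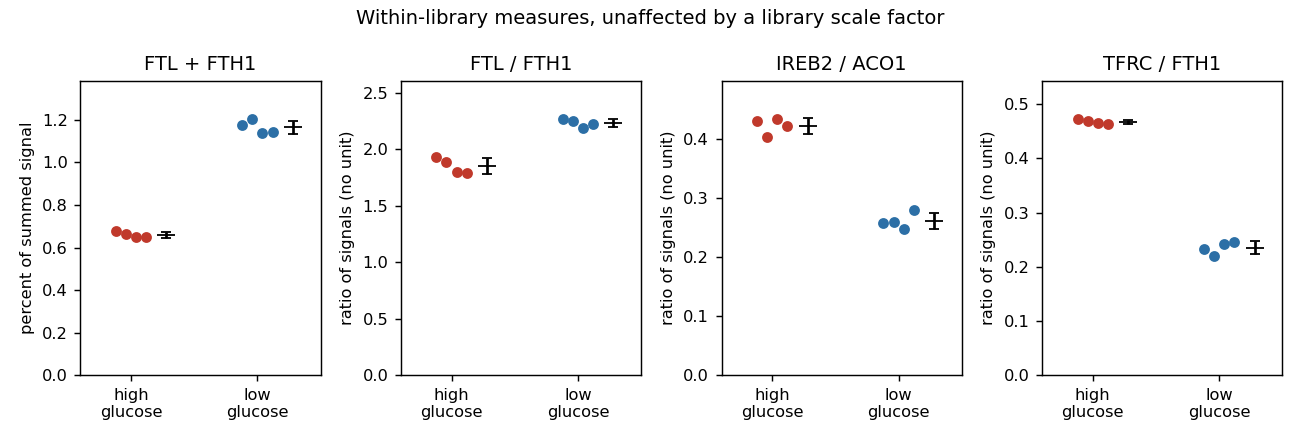
Share of FTL plus FTH1 in the summed signal of a library (left, percent) and the FTL to FTH1, IREB2 to ACO1 and TFRC to FTH1 signal ratios (no unit) in 4 high-glucose (red) and 4 low-glucose (blue) libraries; each point is a library, and black marks give the mean and SD. The ferritin share averaged 0.659% in high and 1.16% in low glucose, and the TFRC to FTH1 ratio 0.467 and 0.235.

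Relative to the median of all genes, the order of the changes held under scalings by a factor. With equal totals, the log2 fold change minus that median was -1.10 for FTL, -0.83 for FTH1 and -0.24 for NCOA4, and it was 0.83 for IREB2, 0.48 for SLC40A1 and 0.16 each for TFRC and ACO1. As deposited, the same differences were -1.15, -0.88, -0.29, 0.78, 0.63, 0.11 and 0.11. SLC11A2 sat at the median in both, with differences of 0.00 and -0.05. HMOX1, which did not pass as deposited, had differences of 0.17 with equal totals and 0.13 as deposited. Both lay slightly above those of TFRC and ACO1.

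**Figure D3:**
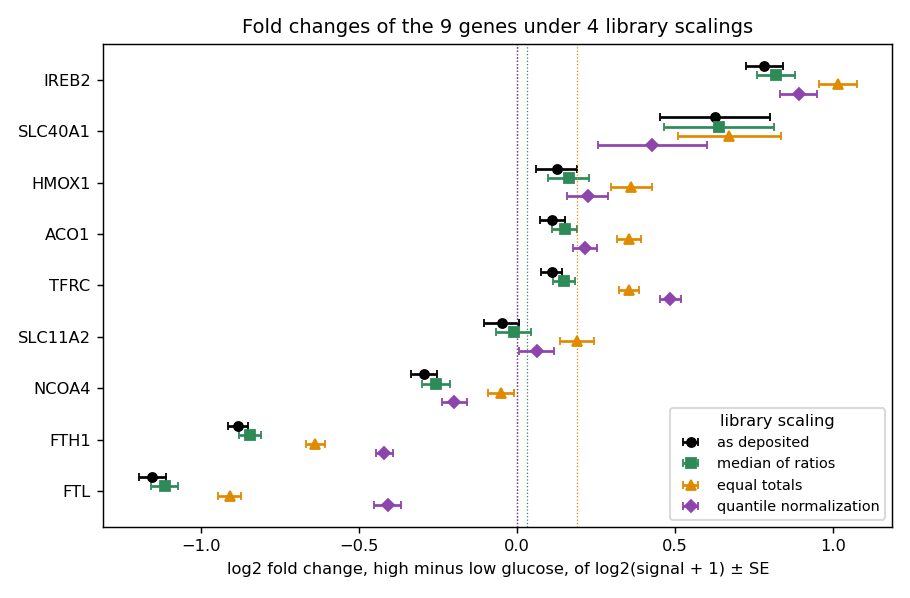
Log2 fold change, high minus low glucose, of log2(signal + 1) with its SE (x axis) for the 9 genes (rows) under 4 library scalings (colors and symbols); dotted vertical lines mark the median of all genes under each scaling. FTL ran from -1.16 as deposited to -0.41 with quantile normalization, IREB2 was positive under all 4, and SLC11A2 changed sign.

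Among 87 further iron genes listed by role, 74 were tested, of which 22 rose, 41 fell and 11 did not pass, with a median log2 fold change of -0.37. Over all genes tested, 35.7% rose and 37.2% fell. With equal totals, 31 of the 74 rose and 36 fell, with a median of -0.13, against 47.1% and 27.9% and a median of 0.19 over all genes. These shares are the background for each role below. Equal totals raised the log2 fold changes of the 37 genes named below as risen or fallen by 0.15 to 0.24, and all 37 kept their direction and passed. Of the genes that make iron-sulfur clusters or handle iron in mitochondria, 3 rose and 15 fell among 23 tested (median -0.50), against 35.7% and 37.2% of all genes, or 6 and 12 with equal totals (median -0.26), against 47.1% and 27.9%. The chaperone HSPA9, which helps to hand over new clusters, fell to 524 ± 19.996 CPM in high glucose, against 1086 ± 34.8 CPM in low glucose (SD, n = 4 each). The late-acting scaffold NFU1 (-0.89), the ferredoxin FDX2 (-0.89) and the desulfurase partner LYRM4 (-0.73) fell too, and GLRX5 did not pass (0.12, though it rose with equal totals, 0.36, and with quantile normalization, 0.22). Of the 10 genes of the cytosolic cluster machinery, 2 rose and 8 fell (median -0.62), or 3 and 7 with equal totals (median -0.39), against the same shares of all genes. The deepest falls were those of NUBP2 (-1.39), CIAO2B (-0.88), MMS19 (-0.84) and CIAPIN1 (-0.66). HSPA9 is also a general mitochondrial chaperone, and MMS19 also acts on DNA repair enzymes that carry clusters.

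Of 5 tested storage and ferritin-turnover partners, 3 fell and 2 rose. PCBP1, a chaperone that brings iron to ferritin, had 267 ± 21.8 CPM in high and 517 ± 7.02 CPM in low glucose (-0.95), and its relative PCBP2 (-0.72) and the autophagy receptor TAX1BP1 (-0.61) fell as well. HERC2, the ubiquitin ligase that targets NCOA4, rose (0.33). PCBP1 and PCBP2 are also general RNA-binding proteins. For uptake, 4 of 12 rose, 5 fell and 3 did not pass (median -0.01), but with equal totals 7 rose and 4 fell (median 0.23), so this role has no direction of its own. HFE, a partner of the transferrin receptor, rose to 29.3 ± 1.68 CPM in high glucose, against 12.3 ± 0.511 CPM in low glucose (1.19), and the transporter SLC39A8 rose (0.42). Lactoferrin, LTF, an iron-binding secreted protein, was 0.397 ± 0.0967 CPM in high and 6.33 ± 0.998 CPM in low glucose (-2.38), and SLC22A17, a receptor for lipocalin, fell (-0.91). VPS35, part of the retromer coat, did not pass (0.01, but 0.26 and higher with equal totals). For export only the amyloid precursor APP could be tested, which rose (0.35).

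Heme genes moved in both directions, with 8 of 17 higher, 7 lower and a median of 0.10, near the 35.7% and 37.2% of all genes. With equal totals 9 were higher and 7 lower, with a median of 0.34. ALAS1, the enzyme that starts heme synthesis, fell to 75.2 ± 3.29 CPM in high glucose, against 156 ± 4.39 CPM in low glucose (-1.04), and the biliverdin reductase BLVRB fell (-1.27). The heme exporters FLVCR1 (1.10) and ABCG2 (1.39) rose, while UROD did not pass (0.10), though it rose under the other 3 scalings (0.13 to 0.34). Of 6 genes of iron sensing and of messages described with IREs, 2 rose and 3 fell, with a median of -0.20, whereas with equal totals 3 rose and 3 fell, with a median of 0.04. FBXL5, the ubiquitin ligase subunit that removes IRP2 when iron is plentiful, fell to 81.4 ± 3.17 CPM in high glucose, against 163 ± 4.81 CPM in low glucose (-0.99). IREB2 message was higher and FBXL5 message lower in every high-glucose library than in any low-glucose library. Of all genes tested, 32.2% were separated in the direction of IREB2 and 34.5% in that of FBXL5, so the separation is not particular to them. EPAS1, the hypoxia factor HIF-2-alpha, fell to 265 ± 1.88 CPM in high glucose, against 543 ± 11.9 CPM in low glucose (-1.03). CDC14A (0.83) and CDC42BPA (0.46), both with an IRE in the 3′ UTR as described for human cells, rose, and PFN2 did not pass (0.03, but 0.28 and higher with equal totals).

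**Figure D4:**
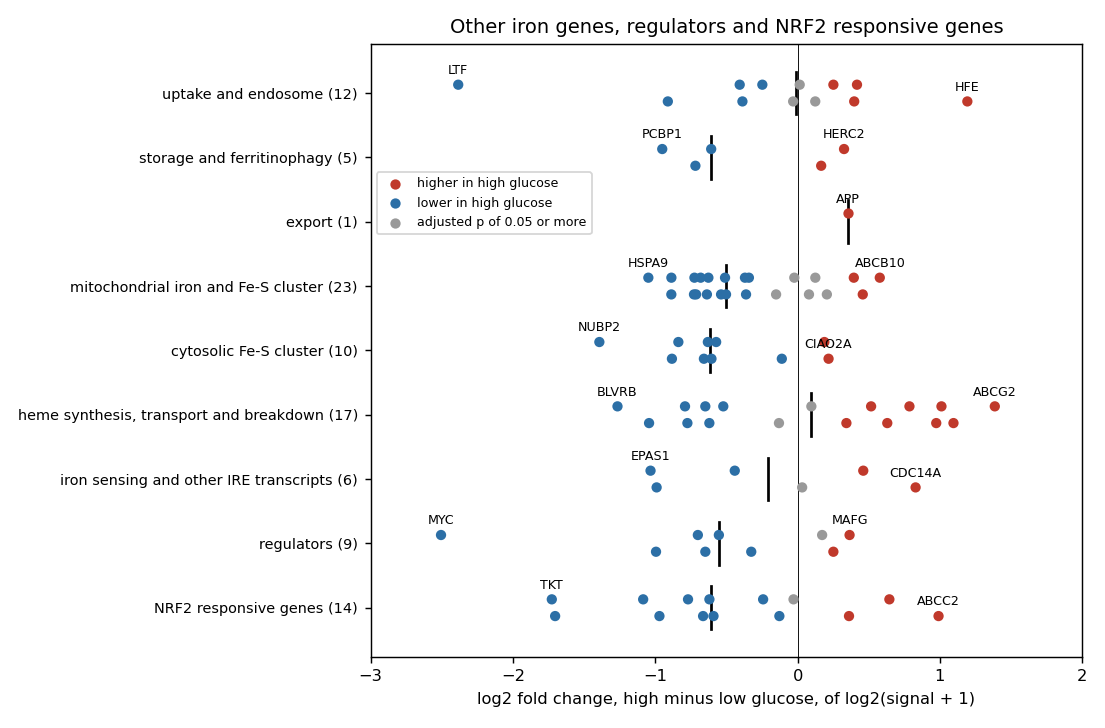
Log2 fold change, high minus low glucose, of log2(signal + 1) (x axis) for each tested gene of 7 iron roles, 9 regulators and 14 NRF2 responsive genes (rows, with the number of genes tested in parentheses); red points rose, blue points fell, gray points did not pass, black bars are medians, and the lowest and highest gene of each row is named. Medians ran from -0.62 for the cytosolic iron-sulfur cluster genes to 0.35 for the only export gene tested.

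Of 9 transcription regulators known to act on iron and heme genes, 6 fell, 2 rose and 1 did not pass, and 72.9% of all genes passed, 37.2% as lower. NFE2L2, the gene of NRF2, had 173 ± 4.32 CPM in high and 254 ± 8.64 CPM in low glucose (-0.55, or -0.31 with equal totals). Its inhibitor KEAP1 fell (-0.99), and the repressor BACH1 fell as well (-0.65, or -0.41). MYC, reported to repress FTH1 and to induce TFRC and IREB2, fell to 51.5 ± 2.56 CPM in high glucose, against 297 ± 10.4 CPM in low glucose (-2.51). ATF4 (-0.70) and the small MAF gene MAFF (-0.33, but only -0.08 with equal totals) fell, MAFG (0.37) and HIF1A (0.25) rose, and MAFK did not pass (0.17, but 0.41 and higher with equal totals). Of 14 NRF2 responsive genes outside the 9, 10 fell, 3 rose and 1 did not pass, with a median of -0.61, against 37.2% lower and 35.7% higher over all genes. With equal totals 8 fell and 5 rose (median -0.37), against 27.9% and 47.1%. The pentose phosphate enzyme TKT (-1.73), the glutathione enzyme GCLC (-1.70) and AKR1C1 (-1.09) fell, whereas the transporter ABCC2 rose (0.99). The ferritin chains were lower together with most genes of this list while HMOX1 was not, and what part these regulators have in the ferritin change was not tested.

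The genes whose levels followed FTL most closely over the 8 libraries were POLDIP3, RPL10A and THBS3, with Pearson r of 0.9998, 0.9996 and 0.9996 across 10918 genes compared. These values describe likeness over libraries that fall into a pair of glucose levels, and they follow the gap between the levels. POLDIP3 had 73.6 ± 3.89 CPM in high and 160 ± 4.82 CPM in low glucose, close to the ratio seen for FTL.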

How the data were processed

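Libraries came from Hs578T cells treated for 48 hours with 25 or 5 mM glucose (4 each). The authors deposited normalized signal, 1 row per gene and 1 column per library. The authors' processing notes list edgeR and hg38. TMM-scaled CPM is described in the study's methods for its RNA-Seq data, which include cell lines. The cell lines listed there do not include cultured Hs578T, which appears only as xenografts. Those methods also name an older genome build than hg38, so they may not describe these values. The values were read as CPM on that basis, and the column totals do not settle the unit. All 8 totals, 1017015 to 1229021, lay above the total of plain CPM. TMM factors from these libraries alone would put some totals below it. Those methods also drop genes without 0.5 CPM in 2 or more samples, yet 1552 rows were at 0 in all 8 libraries. Which libraries were filtered and scaled together is not stated, so the deposited scaling between the groups could not be checked. No aligner, counter or strand setting is stated for the values. Among values under 50 reads, 71.2% to 73.8% stood within 0.005 of a whole read and the rest at hundredths, so no count model was used. The labels do not say whether replicates were separate cultures, so p values measure only the spread between libraries.

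Genes with at least 0.5 CPM in 2 or more libraries entered a linear model of log2 values with a pseudocount of 1 (limma 3.58.1 under R 4.3.3, variance trend on), with Benjamini-Hochberg adjustment over all 15570 genes, and genes with an adjusted p under 0.05 were called. Ratios were compared by exact permutation tests over 70 arrangements. The fit was run on simulated data in which few genes changed and library scaling did not differ between groups. That run therefore does not test the fit under the conditions of these libraries. The 9 genes and the lists were chosen with earlier results of these data known. From each role, up to 4 called genes with the largest change and at least 5 CPM in 1 group, and 1 gene that did not pass, were named, with all regulators, 4 NRF2 responsive genes, 2 pseudogene rows and 3 genes most like FTL. Gene positions are from RefSeq GRCh38.p14. IREs were searched by letters in GENCODE v44 transcripts, without genome coordinates, because that annotation is mapped to GRCh37. Alternatives covered the pseudocount, filter, scaling, variance prior, voom weights, a replicate block and leaving out each library.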

Additional observations from a re-analysis of the deposited data

Results flagged for a closer look

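In 3 of 26 groups of 4 libraries examined (9 genes, 3 ratios and the ferritin share, in each glucose level), the highest or lowest library lay far from the others, and chance gives about 1 in 20 such groups. For TFRC, high-glucose replicate 1 was at 1132 CPM, and the gap to its nearest neighbour was 0.961 of the range of its group. For ACO1, high-glucose replicate 3 was at 103 CPM, below the others by 0.887 of the range. For SLC11A2, low-glucose replicate 1 was at 45.0 CPM, above the others by 0.845 of the range. Leaving out any of these libraries changed none of the calls of these genes.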

How the results depend on the processing

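Of 257 alternative values, 248 kept their direction and their side of the threshold, or stayed within 1.5 times for counts. With equal library totals, NCOA4 no longer passed (-0.0512), SLC11A2 turned to 0.19, HMOX1 passed as higher (0.36) and 5 NRF2 responsive genes were higher, against 3. With quantile normalization, SLC11A2 turned to 0.0617, HMOX1 passed (0.22) and the FTL to FTH1 difference turned to 0.0100005. HMOX1 also passed with median-of-ratios scaling (0.16), and TFRC did not pass with a variance prior without trend (0.11). The cause of these shifts was not tested. Leaving out each library in turn changed no call of the 9 genes: FTL ranged from -1.18 to -1.14, FTH1 from -0.89 to -0.87, IREB2 from 0.77 to 0.81 and SLC40A1 from 0.54 to 0.76. The ratios kept theirs as well (exact permutation p = 0.0286 each time). The ratios separated the groups completely and still do so without any 1 library. These p values therefore add no support, though they are part of the 248. SLC40A1 was left out by a filter of 1 CPM in 4 libraries. With the replicate number as a block, 11494 genes passed, against 11350, and no call of the 9 genes changed. The deviations of libraries with the same number correlated at -0.03, 0.11, 0.01 and 0.08, so the numbers were not taken to pair the libraries. Of the 9 genes, depth limits SLC40A1 most, at an estimated 2 to 17 reads per library, and among the other genes named it limits LTF, at 0.260 to 0.477 CPM in high glucose, and PTPRC, CD14 and CDH1. LTF passed the filter only through its low-glucose libraries, and SLC40A1, PTPRC and CDH1 only through their high-glucose libraries.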
